A study of Mus musculus with 8 samples.

Results

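Microtubules are built from alpha- and beta-tubulin, and the genes described here encode the tubulins, the gamma-tubulin complexes that start a microtubule, the enzymes of the tubulin tyrosine ligase family, the end-binding proteins that track growing tips, the folding cofactors and the polymerization-promoting Tppp proteins. They were taken by gene symbol (names beginning Tuba, Tubb, Tubg, Tubd, Tube, Tubgcp, Ttll and Mapre, with Ttl, Tbca to Tbce, Tppp, Tppp2 and Tppp3), which found 49 of the 56324 gene models in the deposited table. Both groups came from 12-week-old C57BL/6 males labelled Sam68 -/-, a knockout of the RNA-binding protein Sam68, and consisted of 4 libraries of spermatocytes and 4 of spermatids separated by sedimentation at unit gravity. With libraries of this genotype alone analysed here, the comparison was between the cell types under that genotype, and the values do not bear on the loss of Sam68 itself. Libraries are numbered here in the order of their records, which pairs none of them. Nothing in the labels ties a library to an animal of its own, and a p-value therefore reflects the spread among these libraries alone, part of which may be technical.

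In the testis, microtubules form the meiotic spindle of spermatocytes and later the manchette, which shapes the spermatid nucleus, and the axoneme of the sperm tail. A tubulin dimer is folded by cofactors, and its carboxy-terminal tail is then modified: Ttl adds back a terminal tyrosine to alpha-tubulin, while the Ttll enzymes add glutamates (glutamylases) or glycines (glycylases) to tail glutamates. Axonemes are rich in glutamylated and glycylated tubulin.

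Levels are normalized counts, that is the reads of a gene model after division by the library's size factor, and changes are log2 fold changes of normalized count + 1, spermatids minus spermatocytes, with their standard error. A gene was called at a limma Benjamini-Hochberg adjusted p below 0.05 over all tested models together with a log2 change of at least 1 in size. Libraries held 49000266 to 93975960 reads. The labelled cell types were checked against markers, whose counts were summed in each library. All 10 spermatid markers were higher in spermatids without overlap, with sums of 18440 to 33932 in spermatocytes and 513154 to 621614 in spermatids. Of 10 spermatocyte markers, Spo11, Piwil1, Pou5f2 and Tdrd5 were lower in spermatids without overlap, and the other 6 overlapped. Spermatocyte library 4 stood apart among them: Sycp1 was 1653 there, below every spermatid library (8626 to 14192). Sycp3 (3303) and Hormad1 (1395) were below the other spermatocyte libraries (at least 15595 and 6447). They were also below every spermatid library (at least 4421 and 1736). Without that library 1 of the 46 tested members, Ttll1, lost its call. All 10 Sertoli cell markers (sums of 31088 to 160151 against 1947 to 7303) and the 7 Leydig cell markers found (4180 to 8140 against 236 to 1491) were higher in spermatocytes without overlap. Of 11 markers of macrophages and blood 7, all macrophage genes such as Csf1r (11.3 to 35.4 against 623 to 1432), were higher in spermatids without overlap, while the blood markers Alas2 (443 to 1666 against 34.6 to 106) and Hbb-bs were lower and Hba-a1 was at 0 in all but 1 library. Spermatogonial markers summed to 1139 to 2740 in spermatocytes, 5688 in spermatid library 1 and 2488 to 3147 in the other spermatid libraries. In fractions of bulk cells, fewer cells of a type and less RNA per cell cannot be told apart.

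The alpha-tubulin genes differ in the codon that ends their reading frame. Which of the proteins Ttl acts on was not tested. The last 45 coding bases are shown here for 6 of the 8 genes. They are from GENCODE M21 (GRCm38), 5′ to 3′, with the last sense codon in capitals and the stop codon after it. 
Tuba3a, chr6:125278358-125278402, minus strand: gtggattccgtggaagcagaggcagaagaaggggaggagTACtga
Tuba3b, chr6:145621343-145621387, plus strand: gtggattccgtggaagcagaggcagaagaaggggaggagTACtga
Tuba1c, chr15:99037965-99038009, plus strand: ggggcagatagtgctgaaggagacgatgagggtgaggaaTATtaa
Tuba4a, chr1:75215622-75215666, minus strand: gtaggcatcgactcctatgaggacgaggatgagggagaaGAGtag
Tuba8, chr6:121226035-121226079, plus strand: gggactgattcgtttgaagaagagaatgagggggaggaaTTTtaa
Tubal3, chr13:3933518-3933562, plus strand: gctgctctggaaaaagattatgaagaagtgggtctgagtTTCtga
TAC and TAT encode tyrosine, TTT and TTC phenylalanine, and GAG glutamate. The tails of Tuba3a and Tuba3b were identical over these 45 bases. Of the 14 sense codons shown for each gene, 6 encode glutamate in Tuba3a, Tuba3b and Tuba8, 5 in Tuba4a, 4 in Tuba1c and 3 in Tubal3.

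Of the 49 genes, 46 passed the filter on low values (4 or more libraries with a normalized count of 10 or above), and 44 of these had 10 or more in every library. The other 2, Tubal3 and Tubg2, reached 10 in 7 and 6 libraries. Both passed only through the spermatid libraries, where they were higher. Tubb1, Tubb2b and Tubb4a, beta-tubulin genes, were not tested: their highest values in any library were 10.9, 31.5 and 12.0 normalized counts. Of the 46, 23 were called higher in spermatids (50%, against 32.5% of the 28735 models tested), 12 lower (26.1%, against 29.8%) and 11 were not called. For 62.3% of all tested models a call was made in either direction, so a call alone is common in this comparison. The groups did not overlap for 37 of the 46 genes, against 66.4% of all models. The median log2 change of the 46 was 0.93, beside -0.01 for all models. Scaling moved these values together with those of all models. With library totals made equal the median was 0.49 for the members and -0.44 for all models, with 19 members higher (27.8% of all models) and 15 lower (37.4%). Quantile normalization gave medians of 0.46 and -0.36, with 19 members higher (29.1% of all models) and 15 lower (36.3%). All 49 genes were matched by symbol to GENCODE, as were 17968 of the tested models. With these models alone tested and no correction, 6372 were called higher and 3792 lower, a smaller part lower than the 29.8% of all models. A GC correction within each library could be made for these 17968 models, whose median was 0.25 before it and -0.44 after it. The members' median was then 0.40, with 18 higher (27.5% of all models) and 17 lower (36.4%).

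**Figure D1:**
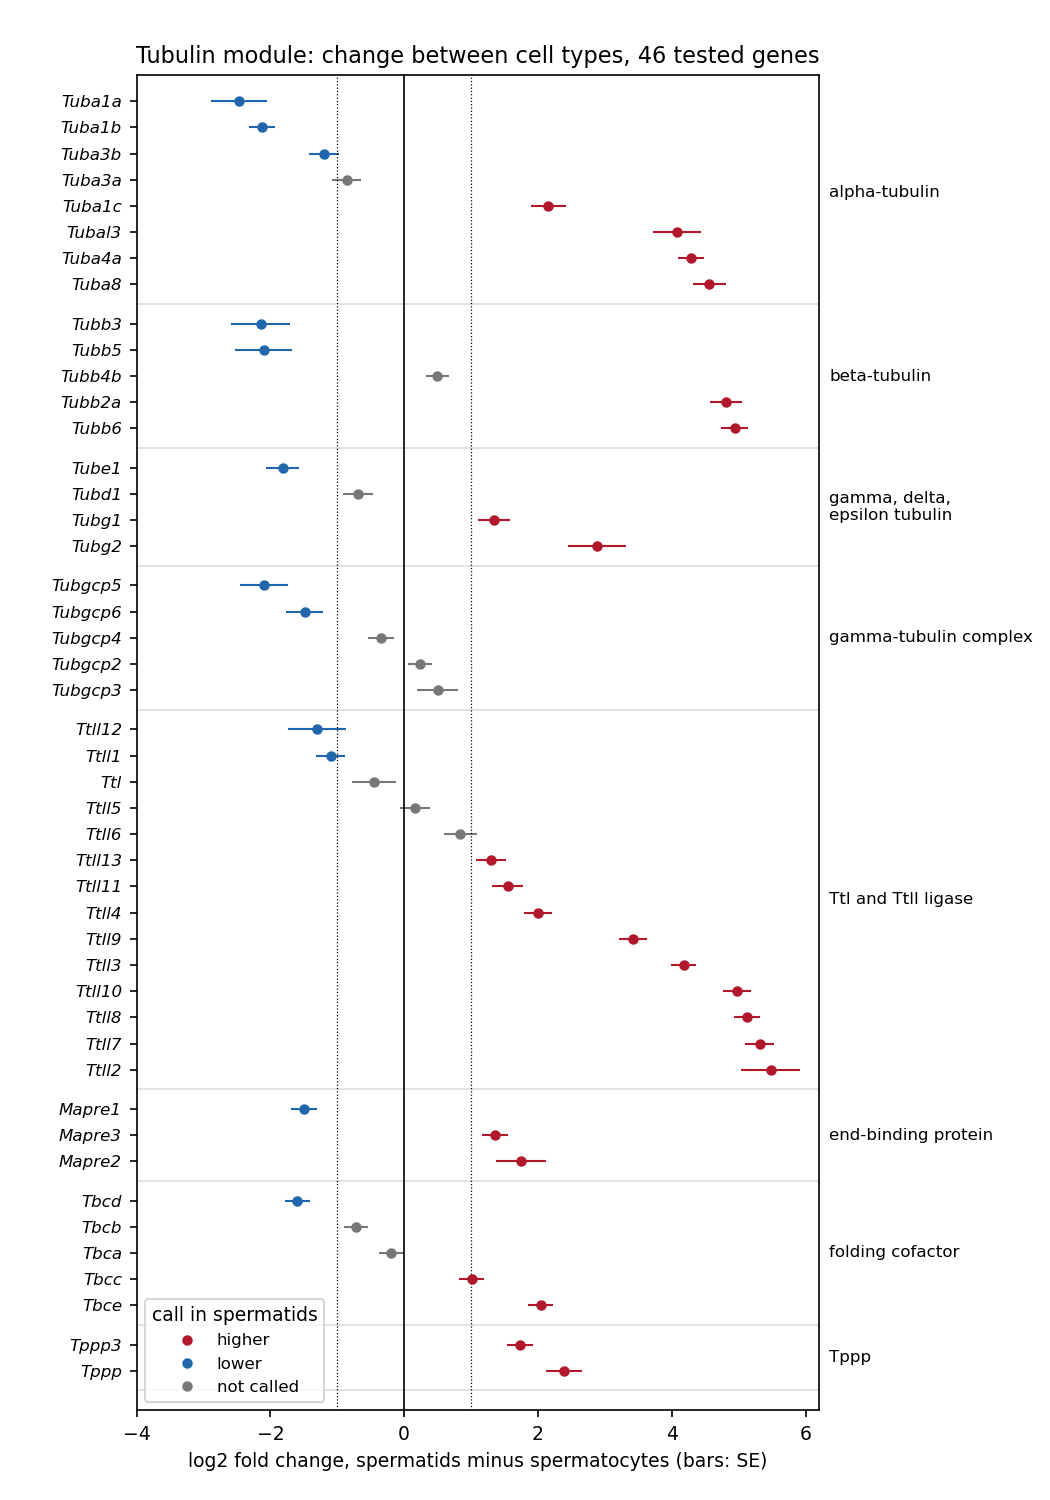
Log2 fold change (x axis, spermatids minus spermatocytes) of the 46 tested genes with its standard error, grouped by role; red points were called higher, blue lower and grey were not called, and dotted lines mark a log2 change of 1 in either direction. The ligases hold 9 higher and 2 lower genes of 14, while 0 of the 5 gamma-tubulin complex genes were called higher. Among all tested models 32.5% were called higher and 29.8% lower.

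Among the alpha-tubulins, the genes that supplied nearly all the RNA in spermatocytes did not rise, while 4 minor genes did. Tuba3a, a testis-specific gene, had 201388, 220994, 175703 and 291366 normalized counts in spermatocytes 1 to 4 and 87919, 147837, 140283 and 114901 in spermatids 1 to 4. Every spermatid library lay below every spermatocyte library, yet the log2 change of -0.86 ± 0.22 (adjusted p = 0.0033) did not reach the fold threshold, which it passed under each rescaling (-1.30 with equal totals, -1.17 by quantiles and -1.28 after GC correction). Its near copy Tuba3b averaged 213586 ± 61421 in spermatocytes against 91968 ± 20179 in spermatids (SD over 4 libraries) and fell by 1.20 ± 0.23 on the log2 scale (adjusted p = 4.4e-04). The coding sequences of both match at 97.0% of 1353 aligned bases, with an identical stretch of up to 155 bases, so the division of reads between them is uncertain.

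Tuba8, Tuba4a and Tubal3, the alpha genes whose frame does not end in a tyrosine codon, all rose. Tuba8 had 936, 517, 908 and 788 normalized counts in spermatocytes 1 to 4 and 14874, 14038, 22290 and 23367 in spermatids 1 to 4. The lowest spermatid library was far above the highest spermatocyte library, and the log2 change was 4.56 ± 0.24 (adjusted p = 9.3e-09). Tuba4a, whose reading frame ends in a glutamate codon, went from 605, 390, 592 and 481 to 9014, 8277, 11546 and 11416 in the same order. That change, 4.29 ± 0.20 (adjusted p = 3.3e-09), was likewise free of overlap. Tubal3, a divergent relative of the alpha-tubulins, was scarce, with 10.5, 6.87, 17.9 and 11.4 in spermatocytes and 149, 303, 207 and 181 in spermatids (log2 change 4.08 ± 0.36, adjusted p = 7.5e-07). It remained the least abundant alpha gene in every library. Tubal3 entered the test only through the spermatid libraries, so its change is not independent of the filter.

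The genes of the chromosome 15 cluster, Tuba1a, Tuba1b and Tuba1c, went in opposite directions although they lie within 95.3 kb of each other. Tuba1b had 2216, 2653, 3384 and 3472 normalized counts in spermatocytes and 763, 646, 620 and 612 in spermatids, a log2 change of -2.13 ± 0.19 (adjusted p = 9.4e-07). Tuba1c had 848, 878, 1992 and 1410 in spermatocytes and 4925, 4589, 5813 and 6314 in spermatids, a change of 2.16 ± 0.27 (adjusted p = 1.2e-05). No spermatid library overlapped a spermatocyte library for either gene. Their coding sequences are 97.9% identical, with a shared stretch of up to 468 bases. That of Tuba1a is 98.3% identical to Tuba1b and 97.1% to Tuba1c. The division of reads among Tuba1a, Tuba1b and Tuba1c is therefore uncertain. Both Tuba1a and Tuba1b also overlap the gene model Gm49450.

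Per kilobase of annotated exon, Tuba3a and Tuba3b together made up 98.6%, 98.3%, 95.3% and 98.4% of the summed alpha-tubulin signal in spermatocytes 1 to 4, and 89.1%, 93.6%, 90.1% and 87.6% in spermatids 1 to 4. They dominated both cell types, with a smaller share in each spermatid library. The genes without a final tyrosine codon, Tuba8, Tuba4a and Tubal3, held 0.189 ± 0.070% of that sum in spermatocytes against 7.67 ± 2.03% in spermatids (SD over 4 libraries). Most of it was Tuba8, with 0.134 ± 0.051% and 5.72 ± 1.62%. These shares were worked out after the levels were seen and are given as a description.

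Beta-tubulin RNA was almost wholly that of Tubb4b, the class IVb gene of ciliated and flagellated cells, in both cell types. Its model overlaps the protein-coding gene Fam166a on the opposite strand. The strand setting of the counting is not known, so reads of Fam166a may be counted with it. Tubb4b had 119990, 110245, 87095 and 122798 normalized counts in spermatocytes 1 to 4 and 130608, 165451, 168113 and 153482 in spermatids 1 to 4. Every spermatid library was above every spermatocyte library, but the log2 change of 0.49 ± 0.17 (adjusted p = 0.022) was short of the fold threshold and was 0.06 with equal totals. Per kilobase it made up 97.1 ± 2.47% of the summed beta-tubulin signal in spermatocytes against 96.2 ± 0.20% in spermatids (SD over 4 libraries). The ratio of the summed alpha to the summed beta signal per kilobase was 4.20, 4.92, 4.86 and 6.13 in spermatocytes and 1.70, 2.13, 1.99 and 1.81 in spermatids. This ratio does not depend on the library's size factor, and its values in both cell types do not overlap.

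Behind Tubb4b, minor beta genes changed places. Tubb6, the class V gene, had 138, 110, 134 and 164 normalized counts in spermatocytes and 3495, 4200, 4634 and 4457 in spermatids (log2 change 4.94 ± 0.20, adjusted p = 1.4e-09). Tubb2a, of class II, had 65.3, 49.1, 42.5 and 41.1 in spermatocytes and 1171, 1527, 1543 and 1342 in spermatids (log2 change 4.81 ± 0.24, adjusted p = 5.3e-09). Both were near the bottom of the beta-tubulins in spermatocytes and above Tubb5 and Tubb3 in every spermatid library per kilobase. The coding sequence of Tubb2a is 96.5% identical to that of the untested Tubb2b, 49.0 kb away on chromosome 13. Beside these rises, 7 of the 8 macrophage markers and 5 of 9 peritubular and endothelial markers (Vwf, for example, at 50.3 to 92.5 against 535 to 692) were higher in spermatids without overlap, while Pecam1 was lower (105 to 119 against 33.1 to 48.6). Their part in these rises was not tested.

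Tubb5 and Tubb3 fell. Tubb3, the class III gene known from neurons, whose model overlaps Gm20388, had 469, 571, 2495 and 1028 normalized counts in spermatocytes 1 to 4 and 279, 164, 183 and 214 in spermatids 1 to 4, a log2 change of -2.14 ± 0.44 (adjusted p = 8.4e-04). Tubb5, the class I gene of most dividing cells, had 1087, 1635, 5024 and 2715 and then 827, 329, 449 and 582 (log2 change -2.10 ± 0.42, adjusted p = 7.1e-04). Spermatocyte library 3 stood highest for both genes, and also for Tuba1a, which had 2135, 4074, 12416 and 5502 in spermatocytes and 824, 664, 1016 and 1117 in spermatids (log2 change -2.47 ± 0.42, adjusted p = 1.8e-04).

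The order of the spermatocyte libraries for these genes was that of the Sertoli cell markers, whose mean log2 level was 9.73, 10.38, 11.97 and 10.74 in spermatocytes 1 to 4 and 7.63, 6.11, 7.60 and 7.50 in spermatids 1 to 4. Spermatid library 2, the lowest in these markers, was also the lowest for Tuba1a, Tubb5 and Tubb3. Without spermatocyte libraries 3 and 4 the log2 changes were -1.73 for Tuba1a, -1.37 for Tubb5 and -1.33 for Tubb3, each still called (adjusted p = 1.3e-04, 0.0024 and 7.3e-04). Without library 3 alone they were -2.03, -1.71 and -1.66. The same order over spermatocyte libraries was seen in 8 of the 46 genes (17.4%) and in 9.94% of all tested models; the other members were Tuba1c, Tubg2, Tubgcp3, Ttll12 and Mapre2. The part of Sertoli cell RNA in these levels was not tested.

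**Figure D2:**
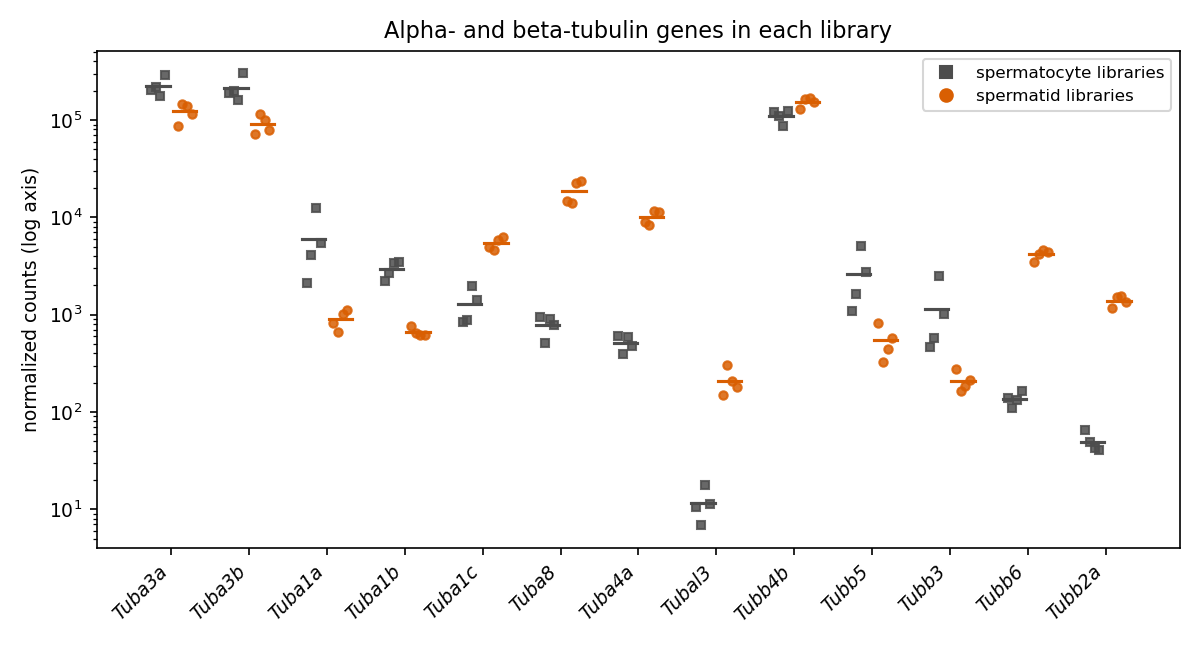
Normalized counts (log axis) of the 8 alpha-tubulin and the 5 tested beta-tubulin genes in each of the 4 spermatocyte libraries (squares) and 4 spermatid libraries (circles), with short lines at the group means. Tuba3a, Tuba3b and Tubb4b lie at the top in both cell types, while Tuba8, Tuba4a, Tubb6 and Tubb2a separate by an order of magnitude or more.

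**Figure D3:**
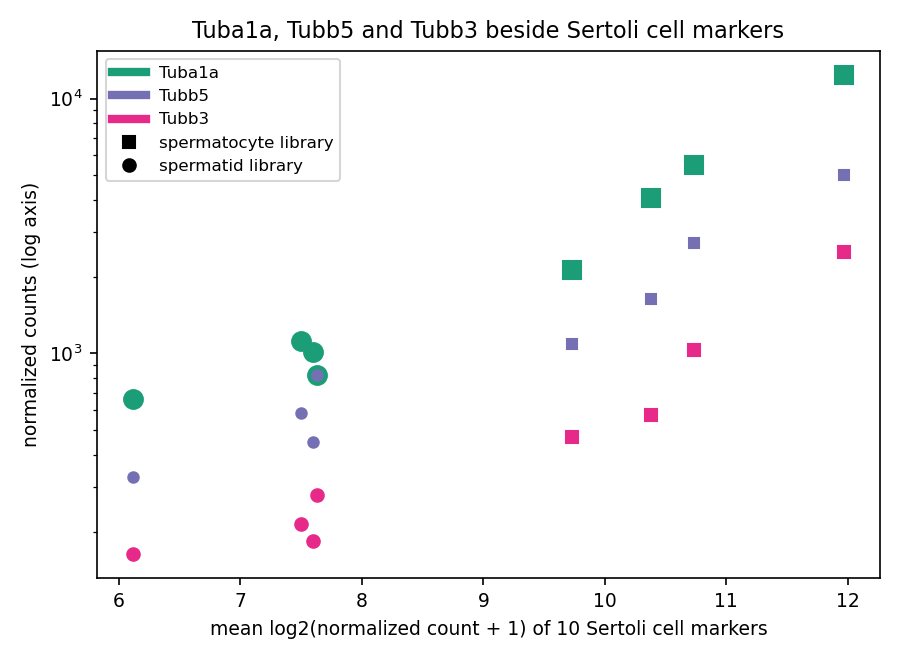
Normalized counts (log axis) of Tuba1a, Tubb5 and Tubb3 in each library against the mean log2 level of 10 Sertoli cell markers; squares are spermatocyte and circles spermatid libraries. The spermatocyte library with the highest marker level, 11.97, has the highest value of all 3 genes; in spermatid library 1 the points of Tuba1a (824) and Tubb5 (827) coincide.

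Gamma-tubulin, which starts microtubules, was higher in spermatids, whereas epsilon-tubulin was lower. Tubg1 had 693, 742, 1209 and 1247 normalized counts in spermatocytes and 1976, 2107, 2897 and 2701 in spermatids (log2 change 1.35 ± 0.24, adjusted p = 2.7e-04), and fell short of the fold threshold under each rescaling (0.91 with equal totals, 0.99 by quantiles, 0.91 after GC correction). Tubg2, which lies 29.5 kb from it on chromosome 11, had 5.64, 6.87, 13.4 and 10.3 in spermatocytes and 133, 47.7, 51.0 and 74.0 in spermatids (log2 change 2.89 ± 0.43, adjusted p = 6.3e-05). Tubg1 was thus the main gamma gene in each library. Tubg2 entered the test only through the spermatid libraries, so its change is not independent of the filter. Tube1, whose product is needed for the triplet microtubules of centrioles, had 417, 489, 463 and 569 in spermatocytes and 188, 139, 128 and 102 in spermatids (log2 change -1.82 ± 0.25, adjusted p = 3.0e-05). Its partner in that role, Tubd1, had 5052, 4949, 3025 and 5268 in spermatocytes and 2126, 3535, 2866 and 2742 in spermatids. The groups overlapped through spermatocyte library 3, and the change of -0.69 ± 0.22 (adjusted p = 0.015) was not called; it was called under each rescaling (-1.12 with equal totals, -1.11 by quantiles, -1.47 after GC correction).

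Of the 5 genes of the gamma-tubulin ring complex 2 fell and 0 rose, beside 29.8% lower and 32.5% higher among all tested models. Counts over 5 genes are too small to set the class apart. Tubgcp5 and Tubgcp6, which encode proteins found in the large ring but not in the small complex, fell. Tubgcp5 had 985, 1299, 2146 and 974 normalized counts in spermatocytes and 626, 241, 221 and 239 in spermatids (log2 change -2.09 ± 0.36, adjusted p = 2.0e-04). Spermatid library 1 stood well above the other spermatid libraries but below every spermatocyte library. Tubgcp6 had 1679, 1611, 2431 and 2686 and then 1224, 507, 686 and 675 (log2 change -1.48 ± 0.28, adjusted p = 4.0e-04), again with library 1 the highest spermatid value. That library also had the highest sum of spermatogonial markers, whose part in these values was not tested, and leaving it out gave -2.45 for Tubgcp5 and -1.73 for Tubgcp6. Tubgcp4, another subunit of the large ring, overlapped between groups, with 4197, 4789, 3699 and 5829 normalized counts in spermatocytes and 2828, 4298, 3945 and 3456 in spermatids. It was not called (log2 change -0.35 ± 0.20, adjusted p = 0.13; -1.13 and called after GC correction). Tubgcp2 (log2 change 0.24 ± 0.17) and Tubgcp3 (0.50 ± 0.31), the subunits of the small complex, were not called either. Tubgcp3 reached 1.06 and a call without spermatocyte libraries 3 and 4. The signs of Tubgcp2 and Tubgcp3 turned after GC correction (-0.26 and -0.27), and that of Tubgcp2 also with equal totals (-0.20) and by quantiles (-0.17).

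The ligase family held the largest rises. Of the 13 Ttll genes 9 rose (69.2%, against 32.5% of all tested models), 2 fell (15.4%, against 29.8%) and 2 were not called. Their median log2 change was 2.0, and Ttl itself was not called. The glycylases rose together: Ttll8, which places the first glycine, had 630, 814, 807 and 724 normalized counts in spermatocytes and 19577, 24159, 31799 and 29656 in spermatids (log2 change 5.12 ± 0.19, adjusted p = 1.0e-09). Its fellow initiator Ttll3 had 758, 781, 883 and 1018 and then 12029, 16059, 18897 and 15639 (log2 change 4.18 ± 0.18, adjusted p = 2.3e-09). Ttll10, which lengthens glycine chains, went from 1158 ± 197 to 36933 ± 8970 (SD over 4 libraries, log2 change 4.98 ± 0.21, adjusted p = 1.8e-09). These 3 glycylase genes ranged from 630 to 1344 over the spermatocyte libraries and from 12029 to 45732 over the spermatid libraries. Ttll3 overlaps Arpc4 on the same strand, so reads of the actin regulator gene Arpc4 may be counted with it. Ttll10 likewise overlaps the gene model Gm13648 on the same strand.

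The glutamylases started from very different levels. Ttll7, which modifies beta-tubulin, had 471, 720, 583 and 406 normalized counts in spermatocytes and 15572, 22292, 24895 and 23237 in spermatids (log2 change 5.31 ± 0.22, adjusted p = 1.6e-09). Ttll9, known from the glutamylation of the sperm tail, rose from 1839 ± 345 to 19727 ± 4156 (SD over 4 libraries, log2 change 3.41 ± 0.21, adjusted p = 3.1e-08). Ttll4, which starts glutamate chains, rose from 1282 ± 367 to 5011 ± 615. The chain-lengthening enzymes Ttll11 (1.55) and Ttll13 (1.29) had smaller log2 changes, and Ttll13 was not called under any rescaling (0.86 with equal totals, 0.78 by quantiles, 0.84 after GC correction). Ttll6, also a chain-lengthening enzyme, overlapped between groups (log2 change 0.84 ± 0.25, adjusted p = 0.0091) and was called only without spermatid library 1 (1.03). Ttll13 and Ttll6 were already high in spermatocytes, at 6341 and 5001 normalized counts per kilobase, against 65.9 for Ttll7.

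Ttll5, a glutamylase gene whose loss is known to impair sperm, was not called. Per kilobase it averaged 3264 in spermatocytes and 3716 in spermatids, below Ttll13 (6341 and 15677) and Ttll6 (5001 and 8888) in both. That order depends on the length used, which joins the exons of all annotated transcripts: 15.875 kb for Ttll5, 4.321 kb for Ttll13 and 3.857 kb for Ttll6. In counts Ttll5 averaged 51812 in spermatocytes, above Ttll13 (27398) and Ttll6 (19288). In spermatids it averaged 58992, below Ttll13 (67742) and above Ttll6 (34282). It had 50721, 59499, 39394 and 57635 normalized counts in spermatocytes and 38000, 68277, 68046 and 61644 in spermatids, with overlapping groups and a log2 change of 0.17 ± 0.22 (adjusted p = 0.51). The sign turned under each rescaling (-0.27 with equal totals, -0.30 by quantiles, -0.61 after GC correction). Ttll1, the catalytic subunit of a polyglutamylase complex, fell from 6704 ± 1703 to 3063 ± 425 (SD over 4 libraries, log2 change -1.10 ± 0.21, adjusted p = 5.2e-04), and missed the fold threshold at -0.97 once spermatocyte library 4 was left out. Its neighbour on chromosome 15, Ttll12, an atypical family member, had 174, 194, 658 and 406 in spermatocytes and 202, 76.6, 120 and 127 in spermatids. These groups overlap, and the change of -1.31 ± 0.43 (adjusted p = 0.017) was not called without spermatocyte library 3 (-0.94), without spermatid library 2 (-1.08) or without spermatocyte libraries 3 and 4 (-0.56).

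Ttll2, a family member on chromosome 17 whose model overlaps Gm49630, had the largest rise. It had 76.6, 13.7, 25.7 and 51.4 normalized counts in spermatocytes and 1633, 1219, 1701 and 1855 in spermatids (log2 change 5.48 ± 0.44, adjusted p = 3.1e-07). Ttl, the tyrosine ligase, was scarce throughout, with 79.8, 54.0, 130 and 98.2 in spermatocytes and 76.1, 51.4, 52.5 and 75.1 in spermatids. The groups overlapped and the log2 change of -0.45 ± 0.33 (adjusted p = 0.24) was not called. Per kilobase it was the lowest of the family in both cell types, with means of 15.2 in spermatocytes and 10.7 in spermatids.

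**Figure D4:**
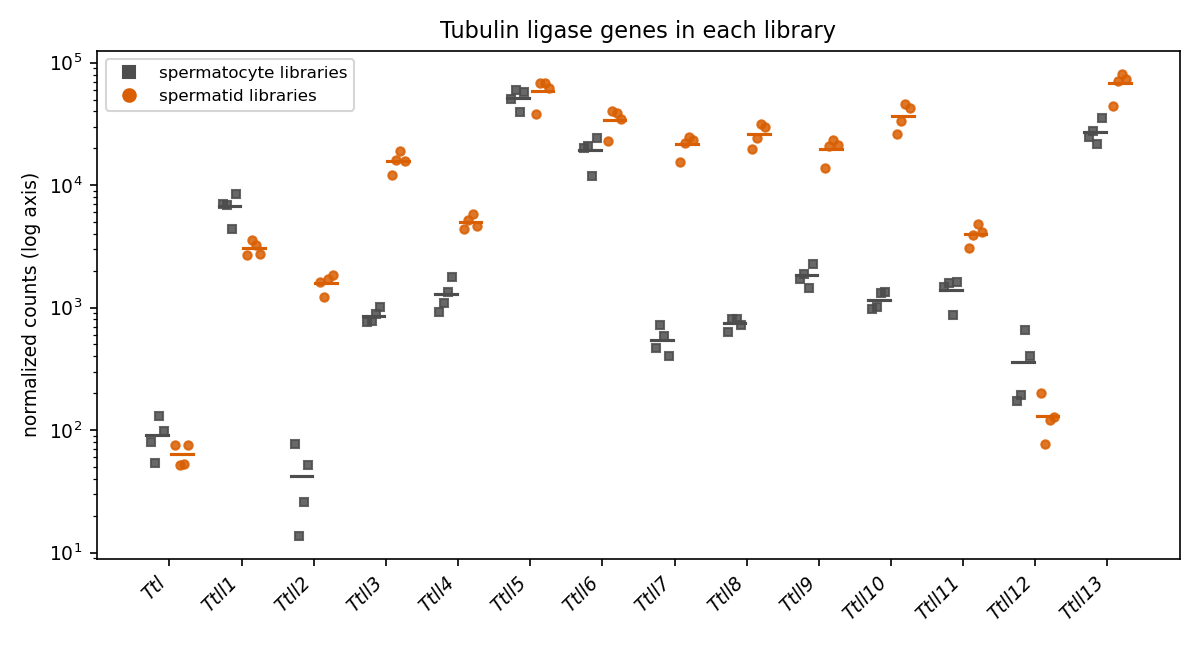
Normalized counts (log axis) of Ttl and the 13 Ttll genes in each of the 4 spermatocyte libraries (squares) and 4 spermatid libraries (circles), with short lines at the group means. Ttll2, Ttll3, Ttll7, Ttll8, Ttll9 and Ttll10 are separated widely, while Ttll5 overlaps and Ttll1 and Ttll12 are lower in spermatids.

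End-binding proteins, which sit on growing microtubule tips, changed their balance. Mapre1, which encodes EB1, had 3543, 4277, 5107 and 3455 normalized counts in spermatocytes and 1716, 1299, 1234 and 1536 in spermatids (log2 change -1.50 ± 0.19, adjusted p = 1.5e-05). Mapre3, for EB3, had 3343, 3390, 2936 and 5046 and then 7878, 8636, 10585 and 10023 (log2 change 1.36 ± 0.20, adjusted p = 5.1e-05), and lost its call under each rescaling (0.92 with equal totals, 0.87 by quantiles, 0.95 after GC correction). Mapre2, for EB2, was scarcer, with 54.8, 64.8, 212 and 98.2 in spermatocytes and 322, 305, 320 and 311 in spermatids (log2 change 1.75 ± 0.38, adjusted p = 0.0011; 1.00 and not called after GC correction). The groups did not overlap for any of the 3 genes.

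The folding cofactors, which hold and join alpha- and beta-tubulin, were split. Tbce, a cofactor of alpha-tubulin, had 681, 840, 1011 and 784 normalized counts in spermatocytes and 2794, 3625, 3630 and 3545 in spermatids (log2 change 2.04 ± 0.18, adjusted p = 8.1e-07). Tbcd, a cofactor of beta-tubulin, had 2081, 2151, 2577 and 3239 and then 914, 820, 742 and 807 (log2 change -1.59 ± 0.19, adjusted p = 9.0e-06). Both changes were without overlap and kept their call in each alternative run. Tbcc, which acts on the joint complex, had 2758, 2334, 1628 and 2256 and then 4304, 4861, 4633 and 4036; its change of 1.01 ± 0.19 (adjusted p = 3.5e-04) lay at the threshold. Tbcc was not called by edgeR or DESeq2 or under any rescaling (0.58 with equal totals, 0.61 by quantiles, 0.53 after GC correction). Leaving out spermatocyte library 3 (0.87), spermatocyte libraries 3 and 4 (0.81), spermatid library 2 (0.97) or spermatid library 3 (0.99) also ended its call. Tbcb, the other alpha cofactor, had 4267, 4284, 3449 and 5565 in spermatocytes and 2355, 2884, 2818 and 2474 in spermatids, and its change of -0.72 ± 0.18 (adjusted p = 0.0032) was not called, but was under each rescaling (-1.16, -1.14 and -1.14 in the same order). Tbca, which holds beta-tubulin, overlapped between groups (-0.19 ± 0.19, adjusted p = 0.37) and was called only after GC correction (-1.14).

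The polymerization-promoting genes both rose. Tppp had 43.5, 40.2, 42.5 and 28.5 normalized counts in spermatocytes and 215, 171, 228 and 207 in spermatids (log2 change 2.39 ± 0.27, adjusted p = 5.8e-06). Tppp3 had 323, 348, 381 and 435 and then 1041, 1173, 1525 and 1220 (log2 change 1.73 ± 0.20, adjusted p = 6.9e-06). Neither gene overlapped between the cell types. No row carried the symbol Tppp2, so that gene has no value here.

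The balance between related genes was compared within libraries, where the size factor cancels. The log2 ratio differed in each of 5 pairs, with adjusted p = 0.0286 over the 5 pairs by the exact two-sided permutation test, the smallest p that 4 against 4 libraries allow. The ratio of Tuba4a to Tuba1b went from -2.50 ± 0.44 to 3.92 ± 0.35 (SD over 4 libraries): Tuba1b had more counts in all 4 spermatocyte libraries and Tuba4a in all 4 spermatid libraries. Mapre3 to Mapre1 went from -0.17 ± 0.56 to 2.68 ± 0.37. Tubb4b to Tubb5 went from 5.62 ± 1.13 to 8.21 ± 0.72, with its lowest spermatocyte value, 4.12, in library 3, and the difference of 2.60 was 1.78 without spermatocyte libraries 3 and 4. Tubg2 to Tubg1 went from -6.61 ± 0.18 to -5.07 ± 0.83, and Ttll8 to Ttll3 from -0.21 ± 0.23 to 0.74 ± 0.14. Tubg2 passed the filter only through the spermatid libraries, where it was higher, so the test of its pair is not independent of the filter. The pairs were chosen with earlier results of these data known, so their p-values are not independent evidence. A pair of Tppp2 and Tppp could not be formed.

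All 49 genes lie on autosomes, over 15 chromosomes. Promoters (250 bases before to 50 after the start, RefSeq, GRCm38.p6) were found for 41 of them, 43 promoters in all. Both strands were searched for GTTGCC, the arm of the X-box bound by RFX factors of ciliated cells, and for TGACGTCA, the CRE bound by CREB and CREM factors, which do not overlap each other. GTTGCC was in 7 of the 20 promoters of genes called higher (35.0%), in 1 of the 11 of genes called lower (9.09%) and in 12.5% of 32851 promoters; TGACGTCA was in 2 of the 20, 0 of the 11 and 1.79%. The motifs were chosen with the changes known and a match is a description of the letters alone. The promoters of Ttll9 and Ttll8, each with GTTGCC or its reverse complement in capitals, and of Tubb2a, with TGACGTCA in capitals, are shown as examples of genes that rose.
Ttll9, chr2:152962235-152962534, plus strand: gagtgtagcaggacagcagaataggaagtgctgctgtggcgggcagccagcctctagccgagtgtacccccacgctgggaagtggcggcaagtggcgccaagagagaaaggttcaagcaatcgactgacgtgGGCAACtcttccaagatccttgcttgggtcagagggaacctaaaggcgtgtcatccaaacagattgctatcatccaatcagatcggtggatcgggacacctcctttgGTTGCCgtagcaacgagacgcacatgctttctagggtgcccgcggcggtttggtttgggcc
Ttll8, chr15:88954369-88954668, minus strand: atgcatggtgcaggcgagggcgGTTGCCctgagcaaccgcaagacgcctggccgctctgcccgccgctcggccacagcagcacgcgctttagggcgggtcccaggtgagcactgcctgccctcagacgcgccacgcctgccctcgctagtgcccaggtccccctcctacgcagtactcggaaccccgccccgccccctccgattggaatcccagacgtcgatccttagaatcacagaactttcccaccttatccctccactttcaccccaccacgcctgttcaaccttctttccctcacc
Tubb2a, chr13:34077959-34078258, minus strand: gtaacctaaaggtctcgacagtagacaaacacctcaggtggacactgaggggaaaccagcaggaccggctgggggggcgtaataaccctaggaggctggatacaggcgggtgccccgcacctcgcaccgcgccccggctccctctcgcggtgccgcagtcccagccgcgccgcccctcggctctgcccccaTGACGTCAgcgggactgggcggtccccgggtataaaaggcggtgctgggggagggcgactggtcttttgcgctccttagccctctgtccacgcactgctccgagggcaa

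Of 76 other genes that act on tubulin and microtubules, 73 were found and 69 tested; 23 were called higher (33.3%, against 32.5% of all models), 10 lower (14.5%, against 29.8%) and 36 were not called, with a median log2 change of 0.33. Among 16 partners of the modifying enzymes 5 rose and 3 fell. Vash2, an enzyme that removes the terminal tyrosine that Ttl restores, went up from 438 ± 78.5 to 11434 ± 2339 (SD over 4 libraries, log2 change 4.70 ± 0.21, adjusted p = 2.2e-09), and Agbl2, of the family that removes glutamates and terminal residues, fell from 33153 ± 4047 to 9381 ± 1910 (-1.84 ± 0.19). Of 23 microtubule-associated and plus-end genes 11 rose and 2 fell, with Map2 highest (5.0 ± 0.25) and Map1b lowest (-2.81 ± 0.30). Of 13 gamma-tubulin recruitment and augmin genes 3 rose and 0 fell, led by Akap9 (2.79 ± 0.26). Of 8 severing and destabilising genes 2 rose and 2 fell, with Fignl1 at -2.31 ± 0.29 and Stmn4 at 33.3 ± 11.8 in spermatids. Stmn4 was under the floor of 3 reads in spermatocytes (0.770 ± 0.954) and entered the test only through the spermatid libraries, so no fold is given. Of 9 folding partners 2 rose and 3 fell, from the prefoldin gene Pfdn2 (-2.18 ± 0.21) to Vbp1, another prefoldin gene (2.57 ± 0.55). With only the 17968 models of known GC content tested, 3792 were called lower, a smaller part than 29.8%. After GC correction 18 of the partner genes were higher and 19 lower, against 27.5% and 36.4% of all models.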

How the data were processed

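RNA of 8 libraries was analysed. The deposited signal is the authors' normalized count, in which a gene model's reads were scaled by library. Per the submitters' processing notes, tools included STAR 2.4.0, SAMtools, Picard, FastQC and DESeq with mm10, in roles that are not stated. How reads were counted and with which strand setting is not given in the sources used here, so reads of overlapping or antisense genes may be mixed; 21 of the 49 genes overlap another gene in GENCODE M21. Per the labels' protocols, stranded libraries of polyadenylated RNA were made. The table's 8 other columns of per-sample values were not used. Dividing by the step between values gave whole reads for 100% of values above 0, within 10% of the step. The floor of 3 reads is 2.42 to 4.50 normalized counts and covers counting error only.

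Tests used limma 3.58.1 (R 4.3.3; trend, robust) on log2(normalized count + 1) over 28735 models, with no covariate; edgeR 4.0.16 and DESeq2 1.42.0 on recovered reads were alternatives. The limma script was separately tested on simulated data. Libraries of a group differed beyond sampling noise (chi-square per degree of freedom at least 11.2). Levels were ranked between genes per kilobase of GENCODE exon. These lengths join the exons of all annotated transcripts of a gene, so a rank can depend on them. Members, lists, pairs and alternatives were chosen with earlier results of these data known. Every member was accounted for by role; in each role the 3 called genes with the largest change, the most abundant gene and the pairs were named with library values, and in each partner list the largest called rise and fall; others were named after their values were seen. The coding ends of the other alpha-tubulin genes are not reported here.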

Additional observations from a re-analysis of the deposited data

Results flagged for a closer look

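In groups of 4 libraries, a library whose gap to the nearest other exceeded Dixon's critical value as a share of the group's range was looked at again, over 92 groups of the 46 tested genes; chance alone gives about 1 in 20 groups. It was found 3 times. Tubgcp5 had 626 normalized counts in spermatid library 1, against 221 to 241 in the other spermatid libraries. Tbce had 2794 in spermatid library 1, against 3545 to 3630. Tubd1 had 3025 in spermatocyte library 3, against 4949 to 5268.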

How the results depend on the processing

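Of the 35 called members, 28 kept their direction and call in every alternative run that tested them (18 of 23 higher, 10 of 12 lower); Tubg2 was not tested with a filter of 50 normalized counts. The exceptions were Mapre2, Mapre3, Tbcc, Ttll13 and Tubg1 among the higher and Ttll1 and Ttll12 among the lower. Members called higher numbered 18 to 25 and lower 11 to 17 over all alternatives, with 19 and 15 under equal total reads and under quantile normalization, where the calls of all models moved the same way (27.8% higher and 37.4% lower, and 29.1% and 36.3%, from 32.5% and 29.8%). Leaving out a library gave 22 to 24 higher and 11 to 12 lower. All genes called fell from 17896 to 11482 with the GC correction and to 10164 where only models of known GC content entered (an alternative added after seeing the data), since 17968 genes were then tested. Partner genes called lower went from 10 to 19 with the GC correction, and members called lower from 12 to 17. Calls lower over all 17968 models of known GC content moved the same way, from 3792 to 6533. The cause was not tested. Signs turned for Ttll5 (-0.27 with equal total reads, -0.30 with quantile normalization, -0.61 with the GC correction), Tubgcp2 (-0.20, -0.17 and -0.26) and Tubgcp3 (-0.27 with the GC correction). With a library left out the 5 paralog ratios could not pass (adjusted p = 0.0571 by the exact permutation test, the smallest possible), with differences of 1.14 to 1.78 for Tubg2 to Tubg1, 2.10 to 2.98 for Tubb4b to Tubb5, 6.30 to 6.63 for Tuba4a to Tuba1b, 2.64 to 3.09 for Mapre3 to Mapre1 and 0.85 to 1.04 for Ttll8 to Ttll3. Without spermatocyte libraries 3 and 4 they were 1.56, 1.78, 6.24, 2.89 and 0.84 in that order (adjusted p = 0.133 by the exact permutation test). No paired analysis was possible because the labels give the libraries no replicate numbers that the cell types share. Genes with few reads, such as Tubg2 and Tubal3 in spermatocytes, are limited by depth.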
